A study of Mus musculus with 7 samples.

Results

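The genes described are the sensors, adaptors, ligases, kinase and transcription factor of the pathway in which PCBP2 and ITCH bring about the degradation of MAVS. They are 10 genes of the 38924 in the count files, taken by symbol from the authors' deposited table: Ddx58, Ifih1, Dhx58, Mb21d1, Mavs, Tmem173, Trim25, Itch, Tbk1 and Irf3. All 10 were found there and all 10 had enough reads to be tested, as had 16226 genes in all. The 7 libraries are messenger RNA of mouse fetal liver aged 12.5 days post coitum: 4 are wild type and 3 are Pcbp2 knockout. The sources used here give no allele, strain, sex or litter, and no treatment applied. The labels do not say that each library came from a separate embryo, so the p-values rest on the spread among libraries, which may be technical.

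RIG-I (Ddx58) and MDA5 (Ifih1) are helicases that detect viral RNA in the cytosol and hand the signal to MAVS, an adaptor on the outer mitochondrial membrane. Cyclic GMP-AMP synthase (Mb21d1, also called Cgas) detects DNA and acts through STING (Tmem173), an adaptor of the endoplasmic reticulum. Both arms meet at the kinase TBK1, which phosphorylates IRF3 so that type I interferon genes are switched on. PCBP2, a poly(C)-binding protein, is known from other systems to recruit the ubiquitin ligase ITCH to MAVS and so to limit signalling. Degradation of a protein does not show in messenger RNA, so the values below bear on the transcripts of these genes alone.

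Reads assigned to genes ran from 31898339 to 44544889 per library. Levels are given in CPM, read counts scaled to library size. A count of 0 allows up to 3 reads, which is 0.0662 to 0.102 CPM depending on the library (counting error only). Pcbp2 itself fell: its mean was 295 ± 86.9 CPM in wild type (SD, n = 4) against 1.95 ± 0.486 in knockout (SD, n = 3; log2 -7.26 ± 0.34, edgeR adjusted p = 1.29e-05), and wild type replicate 1 stood apart from the other wild-type libraries at 165 CPM. The hepatoblast genes Alb and Afp were present (2660 ± 989 and 4939 ± 1584 CPM in wild type), while the T cell marker Cd3e had 0 reads in 6 libraries and 2 reads in the other. Wild type replicates 1 and 2 stood above the other 5 libraries for most of the interferon target genes listed below, and for several of the pathway genes. In the whole comparison 258 genes rose (1.59% of those tested) and 556 fell (3.43%) in knockout, 814 or 5.02% in either direction (edgeR adjusted p under 0.05). In bulk RNA, fewer cells of a type and less RNA per cell cannot be told apart.

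Of the 10 pathway genes 0 passed the test between knockout and wild type with edgeR, against 5.02% of all tested genes, and 0 with limma-voom. Just 1 had an unadjusted p under 0.05 in edgeR, against 21.8% of all tested genes, and it was Mb21d1. DESeq2 called 1, also Mb21d1, where it called 3.88% of genes higher and 6.65% lower. Of the 10 log2 fold changes 8 were below 0, with a median of -0.24, where all tested genes had a median of 0.01 and 47.9% lay below 0. The knockout libraries lay entirely below the wild-type ones for 1 gene, again Mb21d1, and entirely above for 0, against 10.8% and 9.83% of all tested genes, so these shares are near the background.

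**Figure D1:**
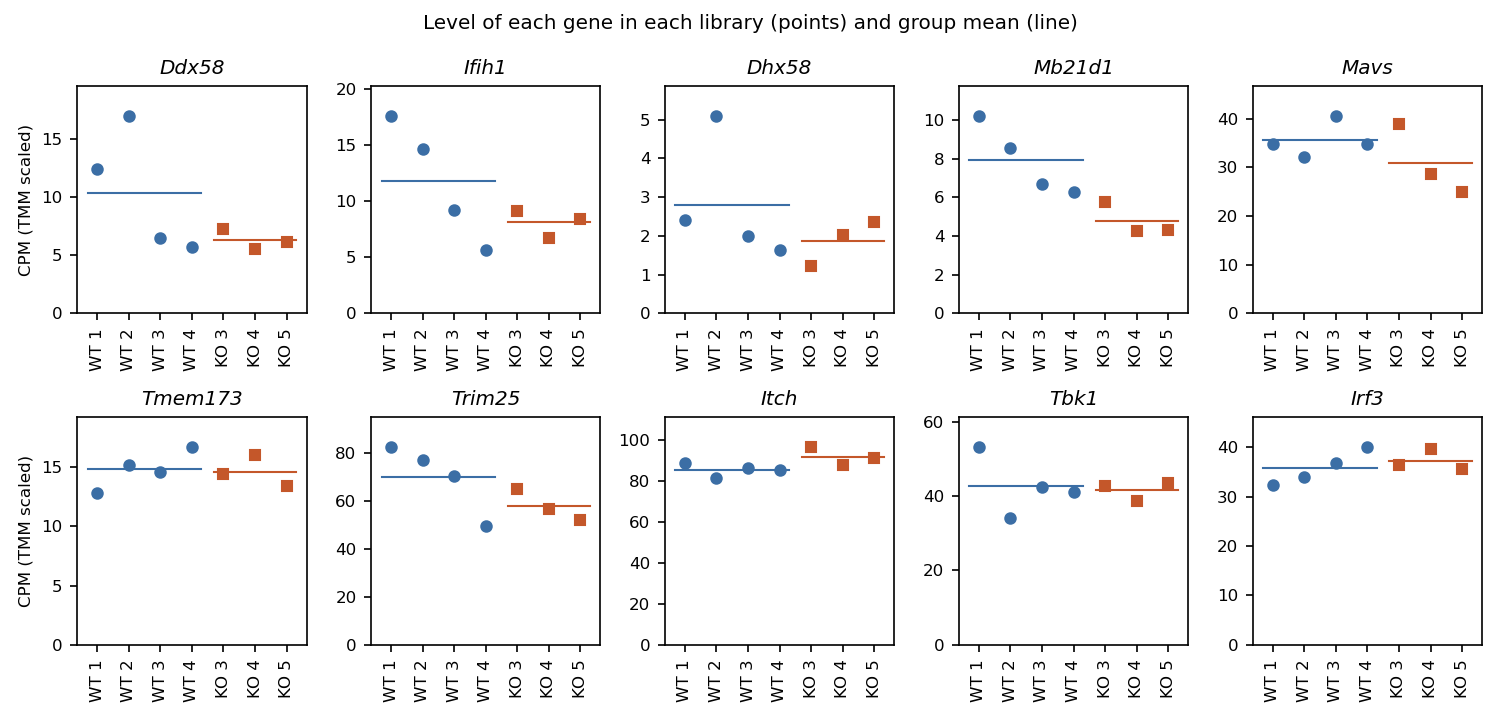
Level of each of the 10 genes (CPM, y axis, from 0) in the 4 wild-type (WT, circles) and 3 knockout (KO, squares) libraries on the x axis, with lines at the group means. For Mb21d1 the groups do not overlap, with 6.26 to 10.2 CPM in wild type and 4.26 to 5.78 CPM in knockout, and for Ddx58 and Ifih1 wild type replicates 1 and 2 lie above the other 5 libraries.

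Of the RNA sensors, Ddx58 encodes RIG-I, which recognises RNA with a triphosphate at its 5′ end. Ddx58 (ENSMUSG00000040296.9, chromosome 4 from 40203773 to 40239828, minus strand, build mm10) had 12.4, 17.0, 6.46 and 5.68 CPM in wild type replicates 1 to 4. Knockout replicates 3 to 5 had 7.26, 5.52 and 6.16 CPM. Wild type replicates 1 and 2 were high, and the other wild-type libraries lay within the knockout range. On the log2 scale the change was -0.72 ± 0.35 (SE; 95% interval -1.48 to 0.05; edgeR adjusted p = 0.26), and it was -0.38 without wild type replicate 2.

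Ifih1 encodes MDA5, which recognises long double-stranded RNA. Ifih1 (ENSMUSG00000026896.8, chromosome 2 from 62595798 to 62646255, minus strand) had 17.6, 14.6, 9.17 and 5.63 CPM in wild type replicates 1 to 4, and 9.13, 6.75 and 8.44 CPM in knockout replicates 3 to 5. Wild type replicate 4 was the lowest of all 7 libraries, and replicates 1 and 2 were the highest. The log2 fold change was -0.53 ± 0.33 (95% interval -1.26 to 0.19; edgeR adjusted p = 0.376), and it was -0.28 without wild type replicate 1.

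Dhx58 encodes LGP2, a relative of both that lacks the signalling domains and modulates them. Dhx58 (ENSMUSG00000017830.9, chromosome 11 from 100694884 to 100704271, minus strand) had 2.40, 5.10, 1.998 and 1.63 CPM in wild type replicates 1 to 4, and 1.21, 2.03 and 2.37 CPM in knockout replicates 3 to 5. Wild type replicate 2 stood well above the rest, replicate 1 just above the knockout range, and the other libraries overlapped. Knockout over wild type gave log2 -0.57 ± 0.40 (95% interval -1.47 to 0.32; edgeR adjusted p = 0.447), and it was -0.11 without wild type replicate 2. An antisense gene overlaps it in the annotation, and the sources used here do not say whether reads were counted by strand.

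The 95% intervals of the ratio to wild type ran from 0.358 to 1.04 for Ddx58, from 0.418 to 1.14 for Ifih1 and from 0.361 to 1.25 for Dhx58, so a change of this size was not resolved in these libraries. Their spread among wild-type libraries was wide: the coefficient of variation was 51.3% for Ddx58, 45.7% for Ifih1 and 56.6% for Dhx58. In knockout it was 14.0%, 15.1% and 31.9%. The median over 13845 tested genes, those averaging 1 CPM or more, was 12.3% in wild type and 11.2% in knockout.

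Mb21d1 encodes the DNA sensor that makes the second messenger cyclic GMP-AMP. Mb21d1 (ENSMUSG00000032344.11, chromosome 9 from 78430526 to 78443237, minus strand) had 10.2, 8.57, 6.70 and 6.26 CPM in wild type replicates 1 to 4. Knockout replicates 3 to 5 had 5.78, 4.26 and 4.33 CPM. Every knockout library lay below every wild-type library, with the smallest gap between wild type replicate 4 and knockout replicate 3. Its log2 fold change was -0.73 ± 0.21 (95% interval -1.19 to -0.27; unadjusted p = 0.00552 and adjusted p = 0.0749 in edgeR), a level of 0.604 times that of wild type. It passed with DESeq2 (adjusted p = 0.0143) and with no filter on low counts (edgeR adjusted p = 0.0494), and over all alternatives the adjusted p ran from 0.0143 to 0.271. Without wild type replicate 1 the log2 fold change was -0.59 (edgeR adjusted p = 0.144). In the authors' deposited table its log2 fold change was -0.71 with an adjusted p of 0.0119, the 1 pathway gene called there, where 6.86% of genes were called lower and 4.06% higher. A pseudogene on the opposite strand overlaps it in the annotation.

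Markers of several cell types moved in the same knockout libraries. Of 13 macrophage markers 6 fell, including Csf1r, the receptor for the macrophage growth factor CSF1 (log2 -0.62 ± 0.13, edgeR adjusted p = 0.0275), and Marco, a scavenger receptor (log2 -2.88 ± 0.37, edgeR adjusted p = 0.00451). Cd68 and Mrc1 had log2 fold changes of -0.00 and -0.01 and Cd163 one of 0.38 (edgeR adjusted p = 0.674), and no marker of the list was at 0 in any library. Their summed level was 390 to 483 CPM in wild type and 265 to 346 CPM in knockout. Of 10 erythroid markers 9 fell (median log2 -1.62), with a summed level of 49414 to 88374 CPM in wild type against 11702 to 15512 CPM in knockout, and 5 of 5 megakaryocyte markers fell (median log2 -1.10). Among endothelial markers 3 of 8 rose (median log2 0.49) and among cardiac muscle markers 2 of 5. Summed, the cardiac markers stood at 337, 71.9 and 141 CPM in knockout replicates 3 to 5, against 67.3 to 123 CPM in wild type. Of 8 hepatoblast, 8 stellate and mesenchyme and 3 tested lymphoid markers 0 were called. Over all tested genes 3.43% fell and 1.59% rose (edgeR adjusted p under 0.05). The part of any of these cell types in the lower Mb21d1 level was not tested.

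**Figure D2:**
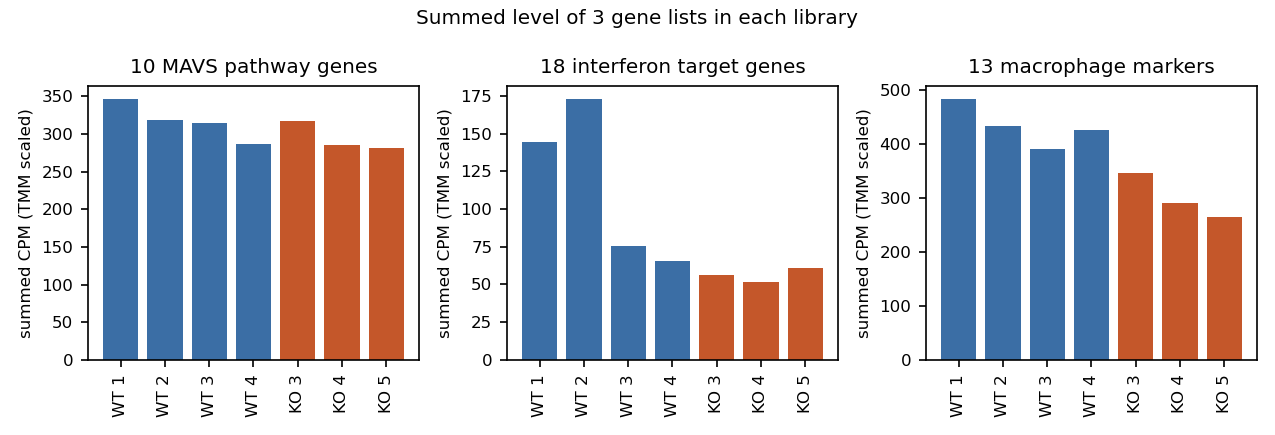
Summed CPM (y axis, from 0) of the 10 pathway genes, of 18 interferon target genes and of 13 macrophage markers, 1 bar per library (wild type blue, knockout orange). Wild type replicates 1 and 2 stand above the rest for the interferon targets, at 144 and 173 CPM, whereas for macrophage markers all 4 wild-type libraries stand above the 3 knockout libraries.

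Of the adaptors, Mavs relays the signal of both RNA helicases and is the protein that PCBP2 and ITCH are known to act on. Mavs (ENSMUSG00000037523.7, chromosome 2 from 131234063 to 131248025, plus strand) had 34.8, 32.1, 40.6 and 34.8 CPM in wild type replicates 1 to 4, and 39.0, 28.6 and 24.9 CPM in knockout replicates 3 to 5. Knockout replicate 3 lay near the top of the wild-type range and the other knockout libraries below it. Knockout over wild type gave log2 -0.21 ± 0.15 (95% interval -0.55 to 0.13; edgeR adjusted p = 0.475), or 0.866 times the wild-type level with an interval from 0.684 to 1.10. Leaving out knockout replicate 3 gave -0.41 and leaving out knockout replicate 5 gave -0.074. In contrast to the sensors, Mavs varied more among the knockout libraries (23.6%) than among the wild-type ones (10.1%).

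Tmem173 encodes STING, the adaptor that binds cyclic GMP-AMP. Tmem173 (ENSMUSG00000024349.9, chromosome 18) had 12.8, 15.2, 14.6 and 16.7 CPM in wild type replicates 1 to 4, and 14.5, 16.1 and 13.4 CPM in knockout replicates 3 to 5. All knockout values were within the wild-type range. The log2 difference was -0.02 ± 0.13 (95% interval -0.30 to 0.26; edgeR adjusted p = 0.954), and its sign turned when scaled by total counts (0.10) and when wild type replicate 4 (0.044) or knockout replicate 5 (0.043) was left out.

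Of the ligases, Itch is the HECT-type enzyme that PCBP2 recruits. Itch (ENSMUSG00000027598.10, chromosome 2 from 155133509 to 155226855, plus strand) had 88.5, 81.2, 86.0 and 85.0 CPM in wild type replicates 1 to 4, and 96.3, 87.7 and 91.2 CPM in knockout replicates 3 to 5. Knockout replicate 4 lay within the wild-type range and the other knockout libraries above it. Its log2 fold change was 0.11 ± 0.08 (edgeR adjusted p = 0.491), or 1.08 times the wild-type level with a 95% interval from 0.949 to 1.22. Itch was the steadiest of the 10 genes, with a coefficient of variation of 3.56% in wild type and 4.72% in knockout, and its log2 fold change was above 0 in all 15 alternatives, from 0.071 when knockout replicate 3 was left out to 0.23 when scaled by total counts (edgeR adjusted p = 0.088).

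Trim25 is the RING-type ligase known for activating RIG-I by ubiquitination. Trim25 (ENSMUSG00000000275.10, chromosome 11 from 88999376 to 89020293, plus strand) had 82.6, 77.1, 70.4 and 49.6 CPM in wild type replicates 1 to 4, and 65.0, 56.7 and 52.2 CPM in knockout replicates 3 to 5. The first 3 wild-type libraries lay above all knockout libraries and replicate 4 below them. The log2 fold change was -0.27 ± 0.16 (95% interval -0.63 to 0.09; edgeR adjusted p = 0.368). Scaling by total counts gave -0.15, and leaving out wild type replicate 4 gave -0.41.

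Tbk1 is the kinase on which both arms converge. Tbk1 (ENSMUSG00000020115.2, chromosome 10 from 121546455 to 121586787, minus strand) had 53.1, 34.2, 42.5 and 41.0 CPM in wild type replicates 1 to 4, and 42.7, 38.6 and 43.4 CPM in knockout replicates 3 to 5. The knockout libraries lay inside the wild-type range. The log2 difference was -0.04 ± 0.14 (95% interval -0.35 to 0.27; edgeR adjusted p = 0.905), and its sign turned when scaled by total counts (0.092) and when wild type replicate 1 (0.082) or knockout replicate 4 (0.013) was left out.

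Irf3 is the transcription factor that TBK1 phosphorylates. Irf3 (ENSMUSG00000003184.8, chromosome 7 from 44997648 to 45002848, plus strand) had 32.3, 34.0, 36.8 and 40.0 CPM in wild type replicates 1 to 4, and 36.3, 39.7 and 35.6 CPM in knockout replicates 3 to 5. These knockout values also lay inside the wild-type range. The log2 difference was 0.06 ± 0.11 (95% interval -0.18 to 0.29; edgeR adjusted p = 0.803). It was 0.0093 when wild type replicate 1 was left out, 0.021 for wild type replicate 2, 0.0068 for knockout replicate 4, 0.11 for wild type replicate 4 and 0.088 for knockout replicate 5, and scaling by total counts gave 0.18. Irf3 overlaps Bcl2l12 on the opposite strand, so reads of the overlap may not be its own.

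**Figure D3:**
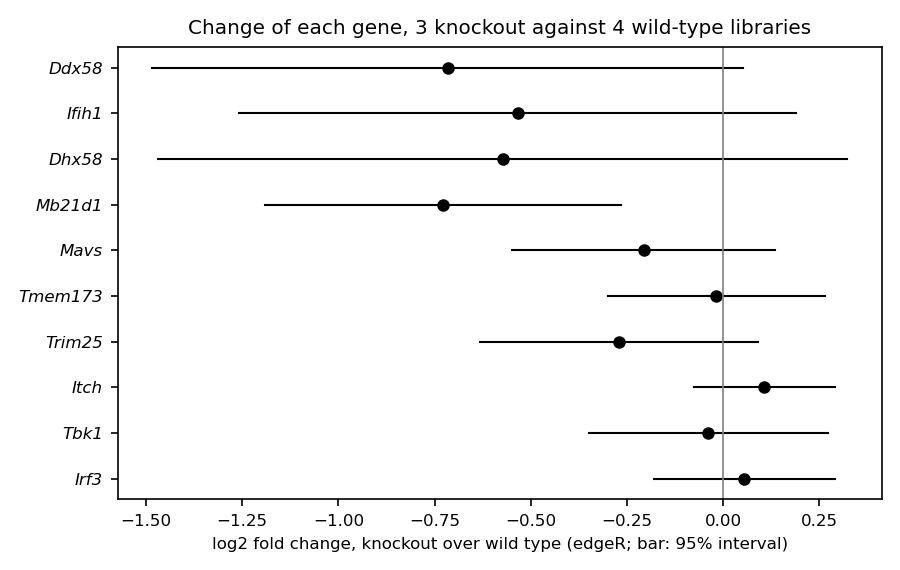
Log2 fold change of each gene, knockout over wild type (x axis; points, edgeR), with its 95% interval (bars). The interval lies wholly below 0 for Mb21d1, from -1.19 to -0.27, and takes in 0 for the other 9 genes.

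Set per length of exon (RPKM, from the union of exons in GENCODE M21), the 10 genes formed a higher and a lower group. In wild type the mean level was 12.2 ± 2.51 RPKM for Trim25, 10.9 ± 2.004 for Tbk1, 10.6 ± 1.07 for Mavs, 10.4 ± 0.979 for Irf3 and 8.77 ± 0.312 for Itch (SD, n = 4). Tmem173 followed at 5.40 ± 0.589 RPKM. The sensors were lowest, at 1.92 ± 0.442 RPKM for Mb21d1, 1.47 ± 0.754 for Ddx58, 1.44 ± 0.658 for Ifih1 and 0.851 ± 0.482 for Dhx58. Among neighbours in this order, the wild-type ranges did not overlap between Irf3 and Itch, Itch and Tmem173, and Tmem173 and Mb21d1, and they overlapped between all others. In knockout the first 5 places were taken by Irf3 (10.8 ± 0.632 RPKM, SD, n = 3), Tbk1 (10.6 ± 0.665), Trim25 (10.1 ± 1.13), Itch (9.45 ± 0.446) and Mavs (9.22 ± 2.17). The adaptors, ligases, kinase and factor thus had more transcript per length than the 4 sensors in both groups. By position, Ifih1, Mavs and Itch lie on chromosome 2 and Trim25 and Dhx58 on chromosome 11.

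In 5 of the 10 genes wild type replicates 1 and 2 were the highest 2 libraries: Ddx58, Ifih1, Dhx58, Mb21d1 and Trim25. Among all tested genes this held for 802, or 4.94%. The pair was picked after the values were seen, so the counts in this paragraph describe the libraries and test nothing. The other 5 members (Mavs, Tmem173, Itch, Tbk1 and Irf3) did not show this order, and its cause was not tested. In the list of IRF3 and interferon target genes, which holds antiviral effectors such as Isg15, Ifit1 and Oas1a, 15 of 16 tested genes had the same 2 libraries highest, the exception being Cxcl10. The wild-type libraries were therefore unlike each other for these genes, and the labels give no batch or litter with which to set them apart.

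**Figure D4:**
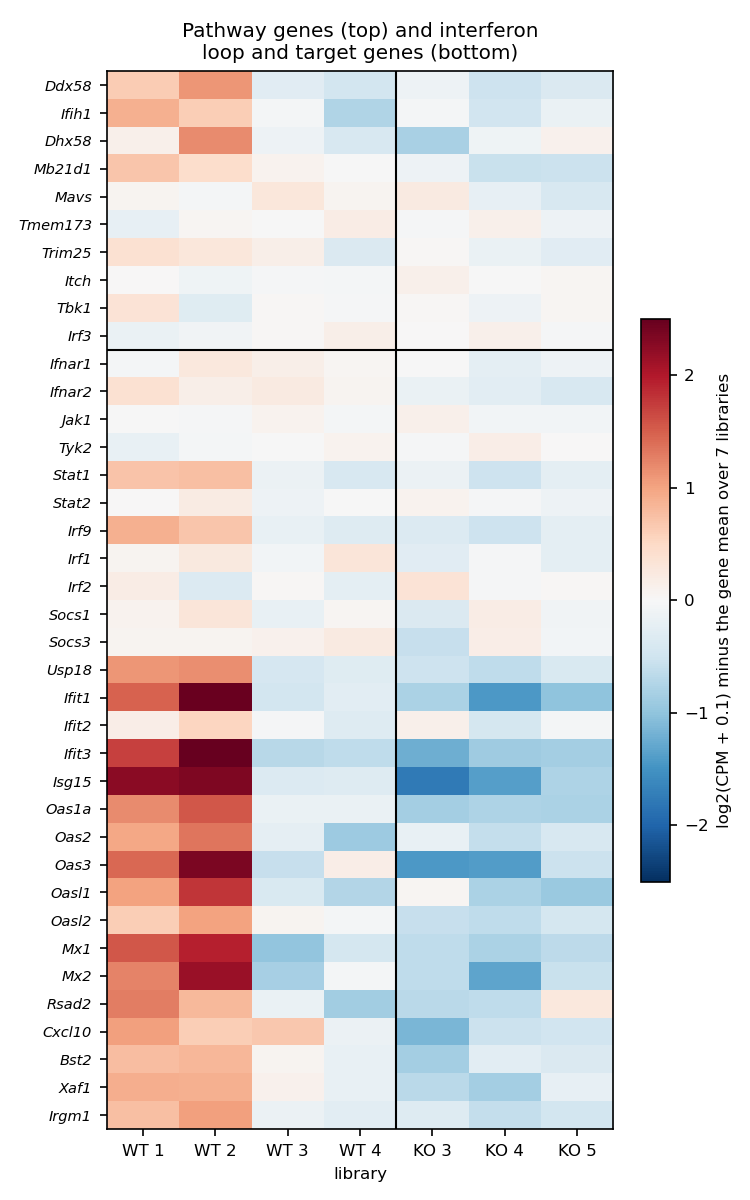
Each row is 1 gene and each column 1 library (WT, wild type; KO, knockout), coloured by log2(CPM + 0.1) minus the mean of the gene over the 7 libraries, with the 10 pathway genes above the horizontal line and 28 interferon loop and target genes below it. Wild type replicates 1 and 2 are high for Ddx58, Ifih1 and most targets, while the rows of Mavs, Itch and Irf3 are pale.

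An interferon-stimulated response element is the sequence through which IRF and STAT complexes act, and its core was searched as GAAA, any 2 bases and again GAAA on both strands in windows from 250 bases before to 50 after the start site (RefSeq, GRCm38.p6). Windows were found for 7 of the 10 genes (Mb21d1 as Cgas; none for Dhx58, Tmem173 or Itch). The core was present in 2 of the 7, Ddx58 and Ifih1, in 9 of 14 matched target genes and in 3.44% of all 32851 windows. A gene counted if any of its windows matched, whereas the last share is per window, with 27025 genes behind the windows. A match is a description of the letters, not of a bound site. The matches of these sensors are shown beside those of 4 target genes so that the letters can be compared; where a window held overlapping matches (Isg15, Oas1a) or several (Ifit1), 1 is given. Each line gives 26 bases, 5′ to 3′ on the strand of the gene, with the match in capitals. The match reads GAAA at both ends where it lies on the gene strand, and TTTC where it lies on the opposite strand.
Ddx58 (chr4:40239806-40239831, minus strand): tgaggcagTTTCGATTTCctatggcc
Ifih1 (chr2:62646206-62646231, minus strand): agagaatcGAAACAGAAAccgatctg
Isg15 (chr4:156200873-156200898, minus strand): aggaaaagGAAACCGAAAcagaaaat
Ifit1 (chr19:34640777-34640802, plus strand): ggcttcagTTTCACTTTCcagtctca
Oas1a (chr5:120907522-120907547, minus strand): gggaaatgGAAACTGAAAatctactt
Cxcl10 (chr5:92349085-92349110, minus strand): acgctttgGAAAGTGAAActtacctc
In Ddx58 and Ifih1 the match begins at base 3 and base 33 of the transcript, and in the 4 targets it lies before the start site. The windows of Mb21d1, Mavs, Trim25, Tbk1 and Irf3 held no exact match. The STAT dimer core TTCNNNGAA was in none of the 7 windows and in 8.3% of all windows.

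Further along the pathway, 103 genes in 4 lists stand beside the 10, and 101 were tested. With edgeR 2 of them fell and 0 rose, 13 had an unadjusted p under 0.05, and DESeq2 called 6 lower and 0 higher. Leaving out wild type replicate 2 gave 5 that fell, leaving out replicate 3 of either genotype gave 1, and leaving out knockout replicate 5 gave 0. Over all tested genes 3.43% fell with edgeR, 6.65% fell with DESeq2 and 21.8% had an unadjusted p under 0.05, so these counts are near or below the background and were not tested against it.

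The signal relay from MAVS and STING to IRF and NF-kappaB factors comprised 22 tested genes with a median log2 fold change of -0.07. None was called, where 5.02% of all tested genes were. Irf7, the interferon-induced partner of IRF3, had 9.78, 13.4, 2.93 and 2.62 CPM in wild type replicates 1 to 4, and 1.63, 2.01 and 2.94 CPM in knockout replicates 3 to 5. It followed the sensors, with wild type replicates 1 and 2 high (log2 -1.71 ± 0.56, edgeR adjusted p = 0.108, but 0.0412 with no filter on low counts). Tradd, an adaptor that MAVS binds, averaged 8.71 ± 0.910 CPM (wild type) and 6.18 ± 1.48 CPM (knockout; log2 -0.49 ± 0.18, edgeR adjusted p = 0.151), and its log2 fold change was -0.31 when knockout replicate 3 was left out.

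Regulators of MAVS and of the RNA sensors, among them the relatives of Itch and the deubiquitinases, comprised 31 tested genes with a median of -0.05, and none was called. Nedd4l, a HECT ligase of the family of Itch, averaged 13.2 ± 1.06 CPM (wild type) and 16.7 ± 0.661 CPM (knockout; log2 0.34 ± 0.11, edgeR adjusted p = 0.111), with the knockout libraries all above. Otub2, a deubiquitinase, averaged 23.1 ± 3.73 and 17.5 ± 1.17 CPM (log2 -0.40 ± 0.14; adjusted p = 0.13 in edgeR, but 0.0488 when wild type replicate 2 was left out). Pcbp1, the relative of Pcbp2 that is also known to lead MAVS to degradation, had 299 ± 23.3 and 277 ± 15.2 CPM (log2 -0.11 ± 0.10, edgeR adjusted p = 0.561; log2 0.013 under total-count scaling). With 5.02% of all tested genes called, 0 of 31 is near the background.

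On the DNA-sensing side, 21 tested regulators of STING and cyclic GMP-AMP synthase had a median of -0.10. Just 1 fell, where 3.43% of all tested genes fell. Rnaseh2c, a subunit of the ribonuclease that removes ribonucleotides from DNA, fell (50.1 ± 8.78 CPM in the wild-type libraries, 30.4 ± 6.42 in the knockout ones; log2 -0.72 ± 0.17, edgeR adjusted p = 0.0419). It no longer passed when wild type replicate 3 (adjusted p = 0.0974) or 4 (0.0985) was left out, nor with knockout replicate 3 (0.0891) or 5 (0.151) left out, nor under total-count scaling (0.0783). Trim56, a ligase that acts on STING, had 55.7 ± 12.1 and 36.4 ± 3.91 CPM (log2 -0.61 ± 0.17, edgeR adjusted p = 0.0635); among the settings without a replicate block it passed with DESeq2 (0.00858), with no filter on low counts (0.0251) and without wild type replicate 2 or 4 (0.0481 and 0.0377).

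Other nucleic acid sensors comprised 27 tested genes with a median of 0.01, and 1 fell, against 3.43% of all tested genes. Unc93b1, the chaperone that carries nucleic acid-sensing Toll-like receptors to endosomes, fell (15.6 ± 1.47 CPM in the wild-type libraries, 8.63 ± 1.38 in the knockout ones; log2 -0.85 ± 0.14), with an edgeR adjusted p of 0.0112 that became 0.0745 when knockout replicate 5 was left out. Aim2, an inflammasome DNA sensor, had 11.6 ± 2.60 and 7.36 ± 1.22 CPM (log2 -0.66 ± 0.19, edgeR adjusted p = 0.0815); among the same settings it passed with DESeq2 (0.0202) and without wild type replicate 2 (0.0440). The knockout libraries lay entirely below wild type for both genes, as for 10.8% of all tested genes. Among the marker lists this held for 9 of 10 erythroid, 5 of 5 megakaryocyte, 7 of 13 macrophage and 2 of 3 tested lymphoid markers. It held for 1 of 8 hepatoblast markers and for no endothelial, stellate and mesenchyme or cardiac muscle marker. The part of the cell types whose markers moved was not tested here either.

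**Figure D5:**
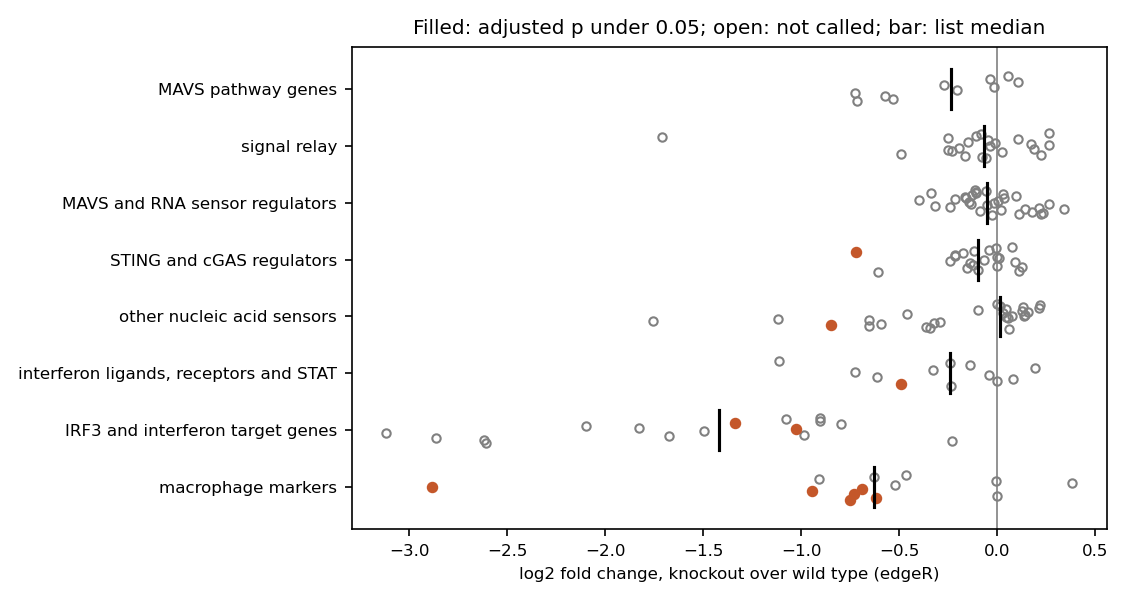
Log2 fold change, knockout over wild type (x axis; edgeR), of each tested gene (points) in the pathway genes, 6 lists of partners and targets, and macrophage markers, with filled points called at an adjusted p under 0.05 and bars at list medians. The pathway genes hold no filled point and have a median of -0.24, and the interferon targets lie furthest to the left with a median of -1.42.

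At the output of the pathway, the interferon genes Ifnb1, Ifna4, Ifnl2 and Ifnl3 had 0 reads in all 7 libraries. Of 12 tested receptors and signalling genes 1 fell, against 3.43% of all tested genes, with a list median of -0.24. Ifnar2, a chain of the type I interferon receptor, had 43.8, 37.5, 39.4 and 35.3 CPM in wild type replicates 1 to 4, and 30.0, 28.0 and 25.4 CPM in knockout replicates 3 to 5. All knockout libraries lay below all wild-type libraries (log2 -0.49 ± 0.11, edgeR adjusted p = 0.034). It no longer passed when wild type replicate 1, 3 or 4 (0.0654, 0.0857 and 0.0527) or knockout replicate 4 or 5 (0.0961 and 0.178) was left out, nor under total-count scaling (0.064). Usp18, an interferon-induced brake on that receptor, stood at 6.33, 6.64, 2.13 and 2.32 CPM in wild type replicates 1 to 4 and at 1.996, 1.83 and 2.20 CPM in knockout replicates 3 to 5 (log2 -1.11 ± 0.42, edgeR adjusted p = 0.151; DESeq2 0.048).

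Of 16 tested target genes 2 fell, 12 had an unadjusted p under 0.05, and all 16 log2 fold changes were below 0 with a median of -1.42. The shares over all tested genes were 3.43% that fell, 21.8% with an unadjusted p under 0.05 and 47.9% with a log2 fold change below 0. For 9 of the 16 the knockout libraries lay entirely below all wild-type libraries, against 10.8% of all tested genes. Cxcl10, a chemokine gene that IRF3 and interferon induce, fell (3.99 ± 1.26 CPM against 1.56 ± 0.386 CPM; log2 -1.34 ± 0.31, edgeR adjusted p = 0.0362). Oasl2, of the oligoadenylate synthetase family, fell (14.9 ± 5.22 CPM against 7.28 ± 0.511 CPM; log2 -1.03 ± 0.24, edgeR adjusted p = 0.0401). Neither passed when wild type replicate 1 was left out (0.0774 and 0.0866), nor knockout replicate 3 (0.083 and 0.0806), knockout replicate 4 (0.0821 and 0.114) or knockout replicate 5 (0.112 and 0.13), nor with limma-voom (0.0599 and 0.0694). Cxcl10 also failed without wild type replicate 3 (0.0868) and Oasl2 under total-count scaling (0.063). Over the interferon loop and its targets together 3 of 28 tested genes fell (3.43% of all genes), but 13 with DESeq2 (6.65% of all genes) and 1 with limma-voom or total-count scaling. With single wild-type libraries left out the count was 0 (replicate 1), 3 (replicate 2), 4 (replicate 3) or 6 (replicate 4). Without knockout replicate 3 the count was 1, and without knockout replicate 4 or 5 it was 0.

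Summed over the 18 target genes, the level was 144, 173, 75.9 and 65.3 CPM in wild type replicates 1 to 4 and 56.3, 51.5 and 60.8 CPM in knockout replicates 3 to 5. Isg15, a ubiquitin-like antiviral protein named here after its values were seen, stood at 11.8, 12.4, 1.86 and 1.89 CPM in wild type replicates 1 to 4 and at 0.635, 0.860 and 1.37 CPM in knockout replicates 3 to 5 (log2 -2.86 ± 0.74, edgeR adjusted p = 0.0548). The knockout libraries were the lowest for both the sum and Isg15, but the step between wild type replicates 1 and 2 and wild type replicates 3 and 4 was larger than the step from the latter to knockout.

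To place Mavs and Itch among other genes, the distance between log2 CPM profiles, centred on the mean of each gene over the 7 libraries, was taken over 13834 genes. The distance was not scaled to spread, so a steady gene such as Itch lies near other steady genes. Nearest to Mavs were Psd4, Emilin2 and Prkcq, at root mean square distances of 0.0663, 0.0692 and 0.0713. Nearest to Itch were Cdk11b, Ik and Rbm28, at 0.0223, 0.0253 and 0.0271. None of the 6 is a gene of the lists above.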

How the data were processed

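Raw read counts per gene were deposited by the authors for 7 libraries (TruSeq stranded mRNA, per the labels' protocols), followed by 5 HTSeq summary lines (19.3 to 26.0% of reads per library) that were left out. The submitters' processing notes name cutadapt 1.4.2, TopHat2, HTSeq, DESeq2, DESeq and build mm10; the sources used here give no settings. The authors' deposited table compares knockout with wild type; per the file headers it holds a mean normalized signal, a log2 fold change with its standard error, a Wald test score, and a p-value, unadjusted and adjusted, for 15548 genes.

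Counts were fitted in R 4.3.3 with edgeR 4.0.16 (filterByExpr, TMM, quasi-likelihood test, group as the only term, all 7 libraries), and p-values were adjusted by Benjamini-Hochberg over all 16226 tested genes, called under 0.05. The script was tested on simulated data. CPM are TMM scaled, SDs are over libraries, and standard errors are from the fit. Lengths and positions came from GENCODE M21 (mm10), matched by identifier without version; the sources used here do not name the authors' release. Alternatives used limma 3.58.1, DESeq2 1.42.0, other scalings and filters, a replicate block and each library left out. The members and gene lists were chosen with earlier results of these data known. The rule for named genes took the 10 members, Pcbp2 and Pcbp1; from each of 6 lists every called gene up to 6, or the 2 with the smallest p where fewer than 2 were called; and the 3 nearest profiles to Mavs and Itch among genes of at least 1 CPM, leaving out predicted and clone names.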

Additional observations from a re-analysis of the deposited data

Results flagged for a closer look

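Among the 4 wild-type libraries, Pcbp2 itself had 1 library far from the others: wild type replicate 1 at 165 CPM, with the other 3 between 329 and 347 CPM. Of 11 genes looked at in this way (the 10 pathway genes and Pcbp2) it was the 1 found. The rule used marks about 1 in 20 genes by chance alone, and 11 were looked at. The cause of the low Pcbp2 level in wild type replicate 1 was not tested.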

How the results depend on the processing

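For the 10 pathway genes the count called lower, 0 with edgeR, was 1 with DESeq2 and 1 with no filter on low counts (Mb21d1 each time), and the count called higher was 0 under all 15 alternatives; leaving out single libraries gave 0 in both directions. Genes called higher over the whole table numbered 651 with total-count scaling, 617 with DESeq2 and 24 to 418 without single libraries; genes called lower numbered 393, 1057 and 116 to 753. Under total-count scaling the median over all genes (log2) went from 0.01 to 0.14, that of the 10 genes from -0.24 to -0.11, and the share of called genes that fell from 68.3% to 37.6%. Pathway partners called lower, 2 in the report, numbered 5 when low counts were not filtered, 6 with DESeq2, 1 with total-count scaling and 0 to 5 without single libraries. Interferon loop and target genes called lower, 3 in the report, numbered 11 when low counts were not filtered, 13 with DESeq2, 1 with limma-voom, 1 with total-count scaling and 0 to 6 without single libraries. Signs turned under total-count scaling for Tmem173 (0.10), Tbk1 (0.092) and Pcbp1 (0.013), and the cause was not tested. Over single libraries left out, Tmem173 ran from -0.090 to 0.044 (above 0 when wild type replicate 4 or knockout replicate 5 was absent) and Tbk1 from -0.14 to 0.082 (above 0 when wild type replicate 1 or knockout replicate 4 was absent).

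The replicate block uses the numbers in the titles, of which only 3 and 4 occur in both groups, so its group term rests on those 4 libraries, and wild type replicates 1 and 2 and knockout replicate 5 do not enter it. With nearly as many terms as libraries, this fit leaves little spread of each gene to measure. Its p-values therefore lean on spread pooled over genes. The deviations of same-numbered libraries from their group means correlated at 0.32 and 0.26 across genes, and the labels do not say that numbers mark a litter or batch. Differently numbered libraries were not correlated in this way, so these 2 values cannot show whether the numbers pair the libraries. With the replicate block 852 genes were called higher and 1204 lower, 0 of the 10 pathway genes were called, 6 partners and 6 interferon loop and target genes were called lower, and the log2 fold change was 0.063 for Ddx58, 0.13 for Ifih1, 0.038 for Trim25 and -0.015 for Irf3, each of opposite sign to the fit without it. For Mb21d1 the replicate block gave a log2 fold change of -0.39 (edgeR adjusted p = 0.271), against -0.73 without it. The median of the 10 pathway genes was -0.02 with the replicate block and -0.24 without it. Of the genes named in the report, Tradd (-0.69, adjusted p = 0.0228), Trim56 (0.00342) and Aim2 (0.025) passed in edgeR with the replicate block, against adjusted p of 0.151, 0.0635 and 0.0815 on all libraries without it. Low counts limit Dhx58 most, at 1.21 to 5.10 CPM; it was not tested with at least 5 CPM in 3 libraries.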
